A study of Mus musculus with 6 samples.

Results

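The conjugation enzymes described here are the UDP-glucuronosyltransferases (UGT), the cytosolic sulfotransferases (SULT) and the glutathione S-transferases with the microsomal glutathione S-transferases (together GST). They were taken by symbol from the table of 28500 genes as all names of the forms Ugt1 to Ugt3 with a or b and a number, Sult with a number, Gst of the classes alpha, kappa, mu, omega, pi, theta and zeta, and Mgst, leaving out pseudogene names that end in -ps. The rule used no measured value and gave 51 genes, 15 UGT, 10 SULT and 26 GST. Messenger RNA had been sequenced from epithelial cells of the colon of 6 untreated mice. Of these, 3 were Ube2fflox mice, whose genotype the labels call WT, and 3 were Ube2fΔIEC mice, called KO, and all 6 are labelled as males of 8 weeks that were given normal drinking water and no DSS. The names stand for a floxed Ube2f allele and, in the second group, its deletion in intestinal epithelial cells. The Cre driver and the deleted exons are not named by the sources used here. UBE2F belongs to the enzymes that attach the ubiquitin-like modifier NEDD8 to cullin scaffolds of ubiquitin ligases.

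All 3 families make foreign and endogenous molecules more water-soluble by attaching a group to them. UGT enzymes sit in the endoplasmic reticulum and transfer glucuronic acid from UDP-glucuronic acid to bilirubin, steroids, phenols and drugs. SULT enzymes are cytosolic and transfer sulfate from PAPS, the activated form of sulfate, to phenols, amines and steroids. GST enzymes join glutathione to reactive, electrophilic compounds, and the microsomal members also act on lipid peroxides and leukotrienes. The epithelium of the gut is a known site of all 3 reactions, which limit what passes from the lumen into blood.

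Shared sequence bears on how the rows can be read. The Ugt1a genes form a single locus on chromosome 1 in which each gene has its own first exon, joined to the same downstream exons. The following 60-base stretches, read from the plus strand of GENCODE M21 on GRCm38, are shown because they mark where a read stops telling the genes apart. The lower-case letters are the last 30 bases of each gene's own first exon and the capitals are the first 30 bases of the shared exon at chr1:88215044-88215175.
Ugt1a1: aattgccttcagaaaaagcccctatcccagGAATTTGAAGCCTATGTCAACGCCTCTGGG
Ugt1a6a: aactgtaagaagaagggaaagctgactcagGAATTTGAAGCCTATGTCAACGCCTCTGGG
Ugt1a6b: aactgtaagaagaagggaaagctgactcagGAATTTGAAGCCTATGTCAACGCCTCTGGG
Ugt1a7c: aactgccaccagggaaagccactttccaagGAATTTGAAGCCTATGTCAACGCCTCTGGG
After the junction these 4 transcripts share 1311 bases, and in Ugt1a6a and Ugt1a6b the letters before the junction are the same as well. Over the whole transcript, 32.5% of the 150-base windows of Ugt1a6a and 68.3% of those of Ugt1a7c were identical to a window of another gene, and the other Ugt1a rows lay between. Such windows also made up 73.7% of Gsta1 and 77.7% of Gsta13, shared with each other, with Gsta2 or with the gene models Gm10639 and Gm3776. In Gsta5 they made up 19%, shared with Gsta1, Gsta2 or Gm3776. The names Gsta5 and Gsta13 do not occur among the matched genes, so these models may be those members under other names. Such windows made up 41.8% of Gstp1 and 49.4% of Gstp2, and 92.8% of Ugt2a1 (shared with Ugt2a2 and a gene model). No such window was found in any of the 10 SULT genes. The sources used here do not say how reads with several matches were counted. The single rows of Ugt1a, and those of Gsta and Gstp that share windows, are therefore uncertain and are given below with sums over rows. No such window was found in Gsta3, Gsta4 or Gstp3, and the Gstp sum includes Gstp3.

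The promoters of the 3 members with the smallest p-values of the comparison are shown next, because these are the rows whose libraries did not overlap between genotypes. Each is the RefSeq stretch of GRCm38.p6 from 250 bases before to 50 after the annotated start. Capitals mark the core of the xenobiotic response element, GCGTG, to which the aryl hydrocarbon receptor binds. The core of the antioxidant response element, TGACNNNGC, to which NRF2 binds, was searched too. Both were searched on both strands, and matches of the 2 motifs may overlap.
Sult1b1, chr5:87538146-87538445, minus strand: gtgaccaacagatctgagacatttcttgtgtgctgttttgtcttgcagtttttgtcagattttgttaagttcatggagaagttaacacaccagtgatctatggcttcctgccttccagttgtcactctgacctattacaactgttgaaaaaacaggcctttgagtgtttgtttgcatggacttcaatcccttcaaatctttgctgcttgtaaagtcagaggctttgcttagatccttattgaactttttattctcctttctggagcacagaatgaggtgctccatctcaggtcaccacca
Sult1c2, chr17:53845909-53846208, minus strand: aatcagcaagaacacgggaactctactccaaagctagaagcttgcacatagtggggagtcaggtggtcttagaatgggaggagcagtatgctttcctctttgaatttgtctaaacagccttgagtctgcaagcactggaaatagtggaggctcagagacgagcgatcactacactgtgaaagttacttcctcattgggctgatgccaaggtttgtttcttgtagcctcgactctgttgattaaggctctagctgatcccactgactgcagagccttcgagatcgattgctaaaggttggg
Gsta1, chr9:78230419-78230718, plus strand: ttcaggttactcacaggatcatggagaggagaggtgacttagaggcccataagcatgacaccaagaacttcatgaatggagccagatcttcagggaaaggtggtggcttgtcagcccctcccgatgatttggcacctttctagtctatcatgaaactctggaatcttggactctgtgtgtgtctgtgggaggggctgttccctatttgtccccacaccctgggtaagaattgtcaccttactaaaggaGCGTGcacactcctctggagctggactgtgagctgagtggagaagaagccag
Gsta1 held 1 match to the xenobiotic response element core, and neither SULT window held a match to either core. The Sult1c2 window lies wholly inside the gene as GENCODE M21 draws it, whose start is 381 bases upstream of the RefSeq start. Of the 51 genes, 45 had a promoter in the table. The antioxidant response element core was found in 0 of 14 UGT, 0 of 9 SULT and 3 of 22 GST promoters (Gsta3, Gstm5 and Mgst1), against 12.4% of all 32851 promoters of the same length. The xenobiotic response element core was found in 2 of 14 UGT, 2 of 9 SULT and 7 of 22 GST promoters, against 32.4% of all. These letter matches are a description and say nothing of binding.

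Total counts per library ran from 55971362 to 77524693. Ube2f itself was measured at 34.0, 42.1 and 32.1 CPM (library-size-scaled counts, using TMM factors) in WT replicates 1 to 3 and at 17.2, 18 and 21 CPM in KO replicates 1 to 3, so every KO library lay below every WT library. The log2 fold change of KO over WT was -0.95 (SE 0.13), with an edgeR adjusted p of 0.0923. KO replicate 1 went against its label in sex: it carried 494 CPM of Xist, at most 1.33 CPM in the other 5 libraries, and 0 counts of Ddx3y, Eif2s3y, Kdm5d and Uty. Results below are therefore also given without it. Epithelial markers (8 genes, keratins and Epcam among them) summed to 13270.5 to 15200.9 CPM in WT and 13187.5 to 14956.5 CPM in KO. Goblet markers (7 genes) summed to 9231 to 11000.2 CPM in WT and 15845 to 16313 CPM in KO, but their members were mixed: at an unadjusted edgeR p under 0.05, 4 were higher in KO (Muc2, Fcgbp, Clca1 and Agr2) and 1 was lower (Tff3). Proliferation markers (8 genes) summed to 377 to 586 CPM and 578 to 650 CPM, with 8 of 8 log2 fold changes positive and 6 at that p. Absorptive colonocyte markers (8 genes) summed to 11684 to 15153.5 CPM and 10172 to 13158.5 CPM, with 8 of 8 negative and 3 at that p (Car4, Aqp8 and Cdhr5). Stem cell markers (4 genes) summed to 86.6 to 96.6 CPM in WT and 69.3 to 76.5 CPM in KO, with 4 of 4 negative and 2 at that p (Lgr5 and Smoc2), and tuft markers (4 genes) to 10.2 to 13.3 CPM and 8.60 to 9.78 CPM, with 4 of 4 negative and 0 at that p. T cell markers (5 genes) summed to 26.4 to 93.5 CPM and 35.1 to 37.8 CPM, with 5 of 5 negative and 1 at that p. Of 4 enteroendocrine markers 4 were negative, 1 at that p (Chga). Of 4 tested myeloid markers 3 were negative, 1 at that p (Csf1r). Of 2 tested smooth muscle markers 1 was higher at that p (Tagln), and of 3 tested liver markers 1 was lower (Ttr). Over all genes tested, 4.15% were higher and 4.03% lower at that p. No gene of these lists was called over all genes. The 5 fibroblast markers summed to at most 3.95 CPM and the 3 liver markers listed in the table to at most 49.2 CPM in any library. In bulk samples a smaller number of cells of a type and less RNA per cell cannot be told apart, and the part of these mixtures in the values below was not tested.

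Across all genes, the edgeR quasi-likelihood test called 8 of 17900 genes at an adjusted p under 0.05, which is 0.0447%. Of the 51 conjugation enzyme genes, 44 passed the filter on low counts (11 UGT, 7 SULT and 26 GST) and 0 were called. At an unadjusted p under 0.05, 1 of the 44 was higher in KO (Gsta1), where the share over all genes was 4.15%, and 2 were lower (Sult1b1 and Sult1c2), where it was 4.03%. In 1 of the 44 every KO library lay above every WT library (7.26% of all genes) and in 2 every KO library lay below (6.9% of all genes), and these were the same 3 genes. Over the 44 together, these counts are near the shares over all genes. By family, both lower genes were among the 7 tested SULT genes, a larger share than over all genes that rests on 2 genes. The 1 higher gene was among the 26 GST genes, and 0 of the 11 UGT genes were in either count. The median log2 fold change was 0.11 in UGT, -0.02 in SULT and 0.06 in GST, beside -0.00018 over all genes. Without KO replicate 1 these family medians were -0.06, 0.01 and 0.00088. If libraries were scaled to their total counts in place of TMM, the median of all genes moved to 0.15 on the log2 scale, so that small differences of either sign are read here relative to all genes.

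Levels between genes are compared in FPKM, the authors' values per gene length and library size. Of the 51 genes, 37 had a mean of at least 1 FPKM over the 6 libraries, 9 UGT, 5 SULT and 23 GST. The highest was Mgst3, a microsomal enzyme with glutathione peroxidase activity, with 321, 300.1 and 255 FPKM in WT and 307, 374 and 338 FPKM in KO. Its mean over the 6 libraries was 316 FPKM. Next came the phenol sulfotransferase Sult1a1 with a mean of 160.1 FPKM, the amine sulfotransferase Sult1d1 with 134 FPKM, Gsto1 with 121 FPKM, Gstm1 with 110.3 FPKM and Gstp1 with 100.1 FPKM. Among the UGT genes Ugt2b34 had a mean of 88.4 FPKM, Ugt1a7c 76.4 FPKM and Ugt1a1 65.4 FPKM. Neighbouring genes in this order of 9 overlapped in their ranges over the libraries, except that every library of Mgst3 was above every library of all other members.

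**Figure D1:**
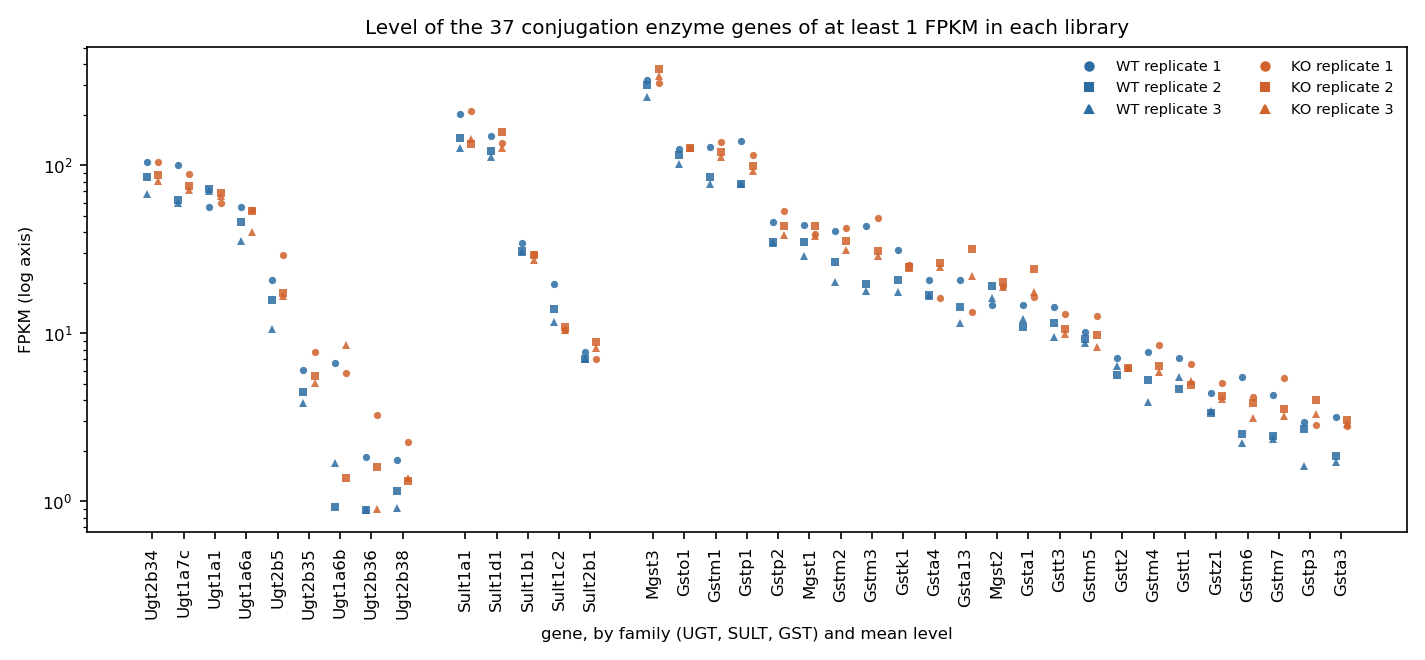
FPKM of the 37 members with a mean of at least 1 FPKM, on a log axis, by family and falling mean level. Each symbol is 1 library (blue WT, orange KO; circle, square and triangle for replicates 1, 2 and 3), and most genes show the symbols of both genotypes in 1 overlapping group, with Mgst3 highest at a mean of 316 FPKM.

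Among the UGT genes no row was called and none had an unadjusted edgeR p under 0.05. The 11 tested rows had 7 positive and 4 negative log2 fold changes, from -0.21 to 0.64. Ugt1a1 encodes the enzyme that conjugates bilirubin. It was measured at 139, 186 and 195 CPM in WT and 137, 158 and 154 CPM in KO. Replicate 1 was the lowest library of each genotype, and the groups overlapped. Its log2 fold change was -0.21 (SE 0.13, edgeR adjusted p = 0.725), and -0.15 (SE 0.15) without KO replicate 1. Without WT replicate 1 it was -0.35 (SE 0.082), with an edgeR adjusted p of 0.116.

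Ugt1a7c, the highest Ugt1a row, ran the other way between the libraries, with 469, 304 and 315 CPM in WT and 387, 331 and 319 CPM in KO. Replicate 1 was here the highest library of each genotype, and the log2 fold change was -0.07 (SE 0.17). Ugt1a6a, a row of the phenol-conjugating UGT1A6 type, ranged from 190 to 272 CPM in WT and from 182 to 240 CPM in KO. Ugt1a6b had the widest relative range among the 37 members of at least 1 FPKM, with 17.6, 2.56 and 5.04 CPM in WT and 14.3, 3.42 and 21.6 CPM in KO. Its highest library (KO replicate 3) was 8.43 times its lowest (WT replicate 2), and the log2 fold change of 0.64 had an SE of 0.77. Both Ugt1a6 rows together gave 289, 230.4 and 195 CPM in WT and 255, 241 and 204 CPM in KO. Most of this sum was Ugt1a6a in every library, so its smaller relative spread says nothing of how reads were divided between the rows. The share of the Ugt1a counts on the Ugt1a1 row was 15.5, 25.8 and 27.7% in WT and 17.6, 21.6 and 22.7% in KO. All Ugt1a rows summed gave 898, 721 and 705 CPM in WT and 779, 732 and 677 CPM in KO, with a log2 fold change of -0.09 (SE 0.11) and overlapping groups.

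The UGT2 genes lie in 1 region of chromosome 5 in GENCODE M21, and their products are best known for steroids and other lipophilic substrates. Ugt2b34 carried most of their RNA, with 501, 423 and 361 CPM in WT and 467, 391 and 370.2 CPM in KO and a log2 fold change of -0.07 (SE 0.14). Ugt2b5 was measured at 43.1, 33.9 and 24.4 CPM in WT and 56.0, 33.4 and 32.9 CPM in KO. Ugt2b35 gave 22.5, 17.4 and 16.0 CPM in WT and 27.0, 19.3 and 18 CPM in KO. In these 3 genes replicate 1 was the highest library of each genotype.

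Ugt2b36 lay lower still, with 4.20, 2.12 and 2.31 CPM in WT and 6.96, 3.42 and 1.97 CPM in KO. The log2 fold changes were 0.27 (SE 0.25) for Ugt2b5, 0.20 (SE 0.19) for Ugt2b35 and 0.51 (SE 0.47) for Ugt2b36, and the groups overlapped in each. Without KO replicate 1 they were -0.03 (SE 0.22), 0.0016 (SE 0.17) and -0.10 (SE 0.40). Ugt2b38, of which 19.2% of windows match Ugt2b5, ranged from 2.15 to 4.43 CPM over the 6 libraries. Ugt1a2 and Ugt1a5 were tested at under 0.41 CPM in every library. Ugt1a8, Ugt1a9, Ugt2a1 and Ugt2b1 did not pass the filter and had at most 0.35 CPM in any library, with 0 counts in at least 4 of the 6.

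**Figure D2:**
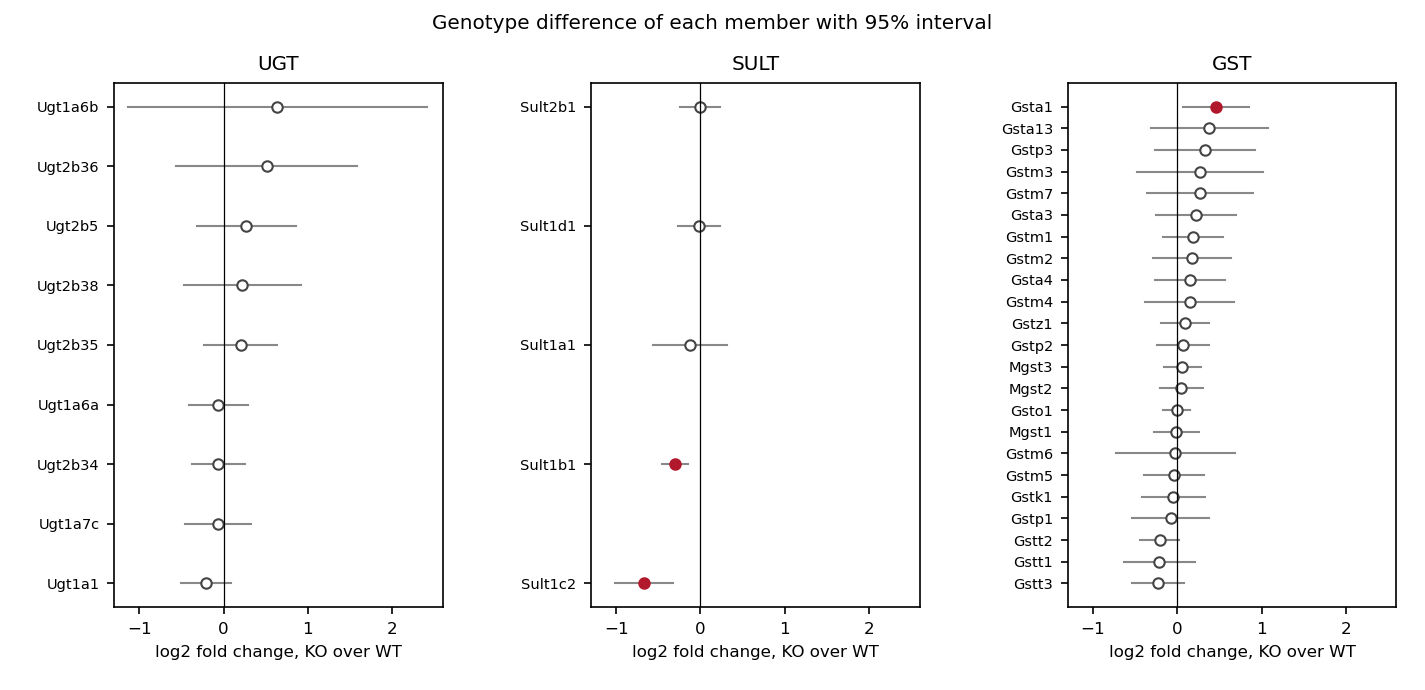
Log2 fold change of KO over WT with its 95% interval for the 37 members with a mean of at least 1 FPKM, in 1 panel per family. Filled red points have an unadjusted edgeR p under 0.05 (Sult1b1, Sult1c2 and Gsta1), open points do not, and the widest interval is that of Ugt1a6b, from -1.14 to 2.41.

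The SULT family held the members with the smallest p-values. Sult1b1, whose product sulfates phenols and thyroid hormones, was measured at 106, 98.4 and 105 CPM in WT and at 84.7, 84.8 and 80.7 CPM in KO. Every KO library lay below every WT library, and the spread within each genotype was small, with a mean of 103 ± 4.16 CPM in WT and 83.4 ± 2.34 CPM in KO (SD, n = 3). The log2 fold change was -0.31 (SE 0.067, 95% interval -0.46 to -0.15), and with an edgeR adjusted p of 0.282 it did not pass the threshold. It was -0.32 (SE 0.079, edgeR adjusted p = 0.597) without KO replicate 1. Scaled to library totals, where the median of all genes was 0.15, it was -0.15, and Sult1b1 no longer had an unadjusted p under 0.05.

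Sult1c2, a sulfotransferase of small phenols, was measured at 40.4, 29.8 and 26.9 CPM in WT and 19.9, 20.8 and 20.4 CPM in KO. Every KO library again lay below every WT library, and the KO libraries were nearly equal while WT replicate 1 stood above the other WT libraries. The means were 32.4 ± 7.15 CPM in WT and 20.4 ± 0.43 CPM in KO (SD, n = 3). The log2 fold change was -0.67 (SE 0.15, 95% interval -1.01 to -0.32, edgeR adjusted p = 0.288). It was -0.65 (SE 0.18) without KO replicate 1 and -0.48 (SE 0.091) without WT replicate 1, with edgeR adjusted p-values of 0.655 and 0.0775. DESeq2 called this gene (log2 fold change -0.67, adjusted p = 0.0046) and no other member, and it called 0.624% of all genes lower in KO. In FPKM it gave 19.7, 14.0 and 11.7 in WT and 10.4, 10.8 and 10.4 in KO, and the KO libraries again lay below all WT libraries.

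The other 3 SULT genes of at least 1 FPKM differed between the genotypes by less than the spread within them. Sult1a1 gave 339, 253 and 238 CPM in WT and 325, 209 and 228 CPM in KO, with replicate 1 highest in each genotype. Its log2 fold change was -0.12 (SE 0.19), and -0.34 (SE 0.16, edgeR adjusted p = 0.85) without KO replicate 1. Sult1d1, which in mouse sulfates dopamine and related amines, gave 409, 344 and 344 CPM in WT and 345, 405 and 332 CPM in KO (log2 fold change -0.02, SE 0.11). Sult2b1, whose product sulfates cholesterol and other hydroxysteroids, gave 33.9, 31.9 and 34.5 CPM in WT and 28.8, 36.5 and 34.5 CPM in KO. Its log2 fold change was -0.007 (SE 0.10), with a 95% interval of -0.24 to 0.23. For these 3 genes the sign was the opposite when libraries were scaled to their totals.

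Of the 10 SULT genes, the remaining 5 were at or near the floor of detection. Sult4a1, known from brain, reached at most 0.54 CPM, with a log2 fold change of 1.13 (SE 0.60), and Sult6b1 at most 0.54 CPM, with 0.67 (SE 0.64). Sult1c1, Sult1e1 (the estrogen sulfotransferase) and Sult6b2 did not pass the filter and had at most 0.12 CPM in any library. For comparison, 3 counts correspond to 0.0376 to 0.0529 CPM at these depths.

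**Figure D3:**
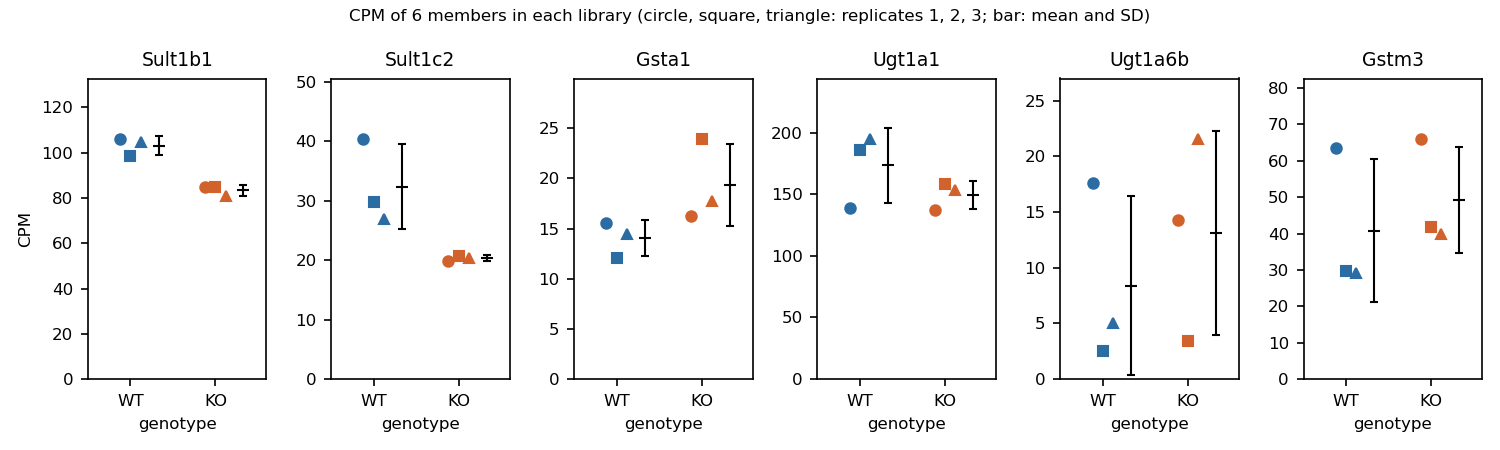
CPM of 6 members in each library, with the mean and SD of 3 libraries per genotype beside the symbols and every axis starting at 0. The genotypes do not overlap in Sult1b1, Sult1c2 and Gsta1, and they overlap in Ugt1a1, Ugt1a6b and Gstm3, with Gstm3 at 63.5 CPM in WT replicate 1 and 66.1 CPM in KO replicate 1.

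Among the GST genes, 26 of 26 were tested, 0 were called and 14 had a positive and 12 a negative log2 fold change. Gsta1, an alpha class enzyme that reduces lipid peroxides and conjugates electrophiles, was measured at 15.6, 12.1 and 14.5 CPM in WT and 16.3, 24.0 and 17.8 CPM in KO. Every KO library lay above every WT library, but KO replicate 1 only narrowly so. The log2 fold change was 0.46 (SE 0.17, 95% interval 0.07 to 0.85, edgeR adjusted p = 0.548). It was 0.57 (SE 0.17, edgeR adjusted p = 0.663) without KO replicate 1 and 0.28 without KO replicate 2. Summed with Gsta2, with which it shares sequence, it gave 16.4, 12.4 and 14.5 CPM in WT and 16.3, 24.2 and 18.2 CPM in KO, and the groups then overlapped (log2 fold change 0.44, SE 0.17). The 4 alpha class rows that share windows, Gsta1, Gsta2, Gsta5 and Gsta13, summed to 36.9, 27.9 and 27.8 CPM in WT and 28.4, 53.8 and 38.8 CPM in KO, an addition chosen after the data were seen. These groups overlapped too, and the sum had a log2 fold change of 0.39 (SE 0.22, edgeR adjusted p = 0.7).

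In 2 further alpha class genes, KO replicates 1 and 2 lay at opposite ends of the 6 libraries. Gsta13, which shares 77.7% of its windows, gave 20.1, 14.5 and 12.6 CPM in WT and 12.1, 28.9 and 20.4 CPM in KO. KO replicate 1 was the lowest and KO replicate 2 the highest of the 6 libraries, and the log2 fold change was 0.38 (SE 0.30), or 0.64 (SE 0.23, edgeR adjusted p = 0.758) without KO replicate 1. Gsta4, whose product conjugates the lipid aldehyde 4-hydroxynonenal, had the same lowest and highest libraries, 21.1 and 34.6 CPM, with WT from 24.8 to 29.2 CPM. KO replicate 3 gave 33.4 CPM of Gsta4, also above every WT library. The log2 fold change of Gsta4 was 0.15 (SE 0.18), or 0.35 (SE 0.11, edgeR adjusted p = 0.663) without KO replicate 1. Gsta3 ranged from 9.31 to 15.5 CPM in WT and from 12.6 to 13.9 CPM in KO. Gsta2 and Gsta5 stayed under 1 CPM in every library, with 0 counts in KO replicate 1.

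The 7 mu class genes lie side by side on chromosome 3, and in all 7 replicate 1 was the highest library of each genotype. Their summed level was 399, 260.4 and 247 CPM in WT and 397, 326 and 305 CPM in KO. In this sum WT replicate 1 and KO replicate 1 were thus alike and above the other 4 libraries, and WT replicate 3 was the lowest of the 6 for 5 of the 7 genes. Gstm5 varied little in WT, from 13.7 to 14.5 CPM. It ranged from 11.2 to 16.7 CPM in KO, with its lowest value in KO replicate 3. Gstm1, the most abundant, gave 211, 145 and 143 CPM in WT and 209, 184 and 175 CPM in KO, with a log2 fold change of 0.19 (SE 0.16, edgeR adjusted p = 0.801). Gstm3 gave 63.5, 29.7 and 29.2 CPM in WT and 66.1, 41.8 and 39.9 CPM in KO, with a log2 fold change of 0.27 (SE 0.32).

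The mu class depended on which libraries were compared. Without WT replicate 1 the log2 fold changes were 0.39 (SE 0.087, edgeR adjusted p = 0.106) for Gstm1 and 0.74 (SE 0.21, edgeR adjusted p = 0.163) for Gstm3. Without KO replicate 1 they were 0.11 (SE 0.18) and -0.002 (SE 0.33). Gstm5 had a log2 fold change of -0.03 (SE 0.17) without WT replicate 1. Leaving out WT replicate 1 also gave 11 of the 44 members an unadjusted edgeR p under 0.05, 4 of them mu class genes (Gstm1, Gstm2, Gstm3 and Gstm6), in a fit in which 16.4% of all genes had one. The others were Ugt1a1, Ugt1a6b, Sult1b1, Sult1c2, Gsta1, Gsta3 and Gstk1, so this was not a trait of the mu class alone. Leaving out KO replicate 1 gave 6 of 44, where the share over all genes was 6.09%. These were Sult1b1, Sult1c2, Gstt3 and the alpha class genes Gsta1, Gsta13 and Gsta4. No member was called in either fit. Sult1b1 and Sult1c2 were among the members with an unadjusted p under 0.05 whichever library was left out.

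In the pi class, Gstp1 gave 238, 138 and 149 CPM in WT and 185, 160 and 153 CPM in KO, and the 3 Gstp rows summed had a log2 fold change of -0.04 (SE 0.18). The row Gstp3 was the lowest of them, with 3.01, 2.84 and 1.85 CPM in WT and 2.70, 3.78 and 3.22 CPM in KO (log2 fold change 0.33, SE 0.26). In the theta class, Gstt2 gave 33, 27.2 and 33.3 CPM in WT and 26.7, 26.8 and 27.4 CPM in KO, with KO replicate 3 just above WT replicate 2. Its log2 fold change was -0.21 (SE 0.10, edgeR adjusted p = 0.643). Gstt3 gave 60.9, 50.7 and 45.7 CPM in WT and 51.8, 42.4 and 40.2 CPM in KO, with replicate 1 the highest library of each genotype. Its log2 fold change was -0.23 (SE 0.13), and -0.35 (SE 0.13, edgeR adjusted p = 0.792) without KO replicate 1. Gstt1 ranged from 8.19 to 12.2 CPM in WT and from 7.79 to 10.3 CPM in KO.

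The steadiest member was Gsto1, an omega class enzyme that reduces dehydroascorbate. It gave 281, 269 and 256 CPM in WT and 265, 267 and 273 CPM in KO, so its highest library was 1.10 times its lowest. The log2 fold change was -0.004 (SE 0.069), with a 95% interval of -0.16 to 0.16, and its sign was the opposite when libraries were scaled to their totals. Mgst3 gave 391, 379 and 347 CPM in WT and 348, 425 and 393 CPM in KO (log2 fold change 0.06, SE 0.095, 95% interval -0.16 to 0.28). Mgst1, the broad detoxifying microsomal enzyme, ranged from 72.7 to 99.3 CPM in WT and from 80.5 to 90.5 CPM in KO, and Mgst2, which can make leukotriene C4, from 60.4 to 81.3 CPM and from 72.9 to 77.6 CPM. Gstk1, the kappa class enzyme of mitochondria and peroxisomes, ranged from 32.2 to 51.2 CPM in WT and from 38.0 to 38.7 CPM in KO. Gstz1, which isomerises maleylacetoacetate in tyrosine breakdown, ranged from 19.8 to 24.9 CPM and from 21.9 to 26.7 CPM, and Gsto2 stayed under 0.6 CPM.

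Many members had their highest or lowest value in the same library. WT replicate 1 held the highest CPM of the 6 libraries for 17 of the 37 members of at least 1 FPKM, where it held the highest for 24.9% of all 11411 genes at that level. WT replicate 3 held the lowest for 15 of the 37, and for 24.2% of all genes. KO replicate 1 held the highest for 10 of the 37, and for 17.9% of all genes. The median SD of log2 CPM within a genotype was 0.28 in UGT, 0.15 in SULT and 0.25 in GST, beside 0.14 over all genes. Summed over the UGT2 genes the level was 575, 479 and 406 CPM in WT and 561, 450 and 426 CPM in KO, again highest in replicate 1 of each genotype. WT replicate 1 also had the largest total count of the 6 libraries and KO replicate 1 the smallest, and the part of depth in these values was not tested.

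**Figure D4:**
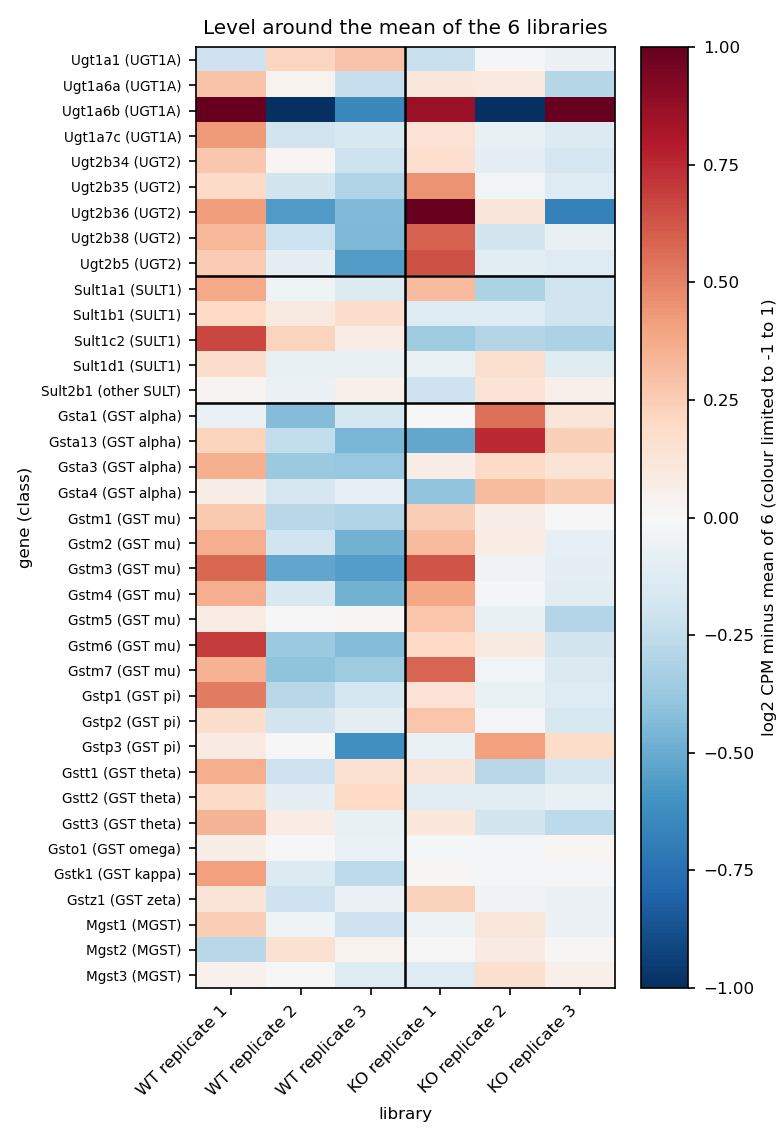
Log2 CPM of each of the 37 members minus its mean over the 6 libraries, with members in rows by class, libraries in columns and colour limited to -1 to 1. WT replicate 1 is red in most rows, being highest for 17 of 37, and WT replicate 3 is blue in many, being lowest for 15 of 37. The mu class rows are red in WT replicate 1 and KO replicate 1, though Gstm5 is only faintly so in WT replicate 1.

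Genes that supply the co-substrates, export the conjugates or regulate these enzymes were followed in 6 lists. None of the listed genes was called at an edgeR adjusted p under 0.05. The counts at an unadjusted p under 0.05 that follow stand beside 4.15% of all genes in the higher and 4.03% in the lower direction. For UDP-glucuronic acid supply and related genes (Ugp2, Ugdh, Slc35d1, Slc35b1 and Gusb), 0 of 5 tested genes had an unadjusted p under 0.05. Slc35d1, which carries the sugar nucleotide into the endoplasmic reticulum, gave 107, 90.4 and 93.3 CPM in WT and 78.1, 91.8 and 80.3 CPM in KO (log2 fold change -0.21, SE 0.095). Ugp2, which makes UDP-glucose, had a log2 fold change of -0.19 (SE 0.094). For PAPS supply and sulfate uptake, 1 of 9 had an unadjusted p under 0.05, in the lower direction. This was the sodium-sulfate cotransporter Slc13a1, with 9.81, 14.5 and 12.4 CPM in WT and 9.04, 9.30 and 9.44 CPM in KO (log2 fold change -0.40, SE 0.16, edgeR adjusted p = 0.568). Slc35b2, the PAPS carrier of the Golgi, had a log2 fold change of -0.23 (SE 0.13). Papss2, which makes PAPS, gave 1604, 831 and 743 CPM in WT and 1174, 797 and 759 CPM in KO, again with replicate 1 highest in each genotype, and is named here after its values were seen.

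For glutathione synthesis and breakdown, 1 of 8 tested genes had an unadjusted p under 0.05, in the higher direction. Gss, glutathione synthetase, gave 180.1, 159.7 and 151 CPM in WT and 194, 194 and 181 CPM in KO (log2 fold change 0.22, SE 0.085, edgeR adjusted p = 0.568). Gsr, glutathione reductase, had a log2 fold change of 0.18 (SE 0.12). Among 6 efflux pumps 1 was higher at that level. This was Abcc4, with 11.8, 10.1 and 13.2 CPM in WT and 14.2, 16.9 and 14.2 CPM in KO (log2 fold change 0.37, SE 0.14, edgeR adjusted p = 0.564), while Abcg2 had -0.25 (SE 0.14).

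Of 13 regulators, 1 was higher and 1 lower at an unadjusted p under 0.05. The bile acid receptor gene Nr1h4 gave 97.6, 119 and 97.5 CPM in WT and 142, 123 and 116 CPM in KO (log2 fold change 0.28, SE 0.11, edgeR adjusted p = 0.568). Its partner receptor gene Rxra gave 174, 160.4 and 157 CPM in WT and 128, 147 and 141 CPM in KO (log2 fold change -0.24, SE 0.080, edgeR adjusted p = 0.481). Of 7 tested genes of other drug-metabolising enzymes, 1 was lower at that level. The epoxide hydrolase gene Ephx2 gave 21.5, 24.7 and 30.4 CPM in WT and 18.5, 18.3 and 19.7 CPM in KO (log2 fold change -0.44, SE 0.13, edgeR adjusted p = 0.456). The quinone reductase gene Nqo1 gave 62.3, 37.7 and 33.2 CPM in WT and 64.3, 59.6 and 50.8 CPM in KO, with overlapping groups (log2 fold change 0.39, SE 0.22). Without KO replicate 1 the unadjusted p stayed under 0.05 for Ephx2 and Abcc4 and was above it for Slc13a1, Gss, Nr1h4 and Rxra.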

How the data were processed

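The deposited table holds whole-number counts and FPKM values per gene and library, per the file headers. The FPKM values are the authors' own, per length of the gene and size of the library. Named in the submitters' processing notes are mm10, HISAT2 2.2.1, cutadapt 1.9, StringTie 2.1.6, edgeR and DESeq2. The sources used here do not say how counts were made or whether strand was kept, so overlapping and antisense genes cannot be told apart. The table held 0 other columns of samples. None of the 51 members had the coordinates of GENCODE M21 in the table, so the positions printed are those of M21 by gene ID.

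All 28500 genes entered 1 fit in R 4.3.3: edgeR 4.0.16 filterByExpr (17900 genes kept), TMM, quasi-likelihood test on genotype, 2-sided, Benjamini-Hochberg over all genes tested, threshold 0.05. Standard errors are the log2 fold change over the square root of F, and 95% intervals use a median of 8.1 degrees of freedom. The procedure was tested on simulated data, whose changes were larger than most differences described here. That test therefore says nothing of the power to call smaller differences. Alternatives were scaling to library totals, DESeq2 1.42.0, no filter, a replicate block, limma 3.58.1 on log2(FPKM + 1), each library left out, and related members summed. The sums were of the Ugt1a rows, of Gstp1 to Gstp3 and of Gsta1 with Gsta2 (the sum of 4 alpha class rows was added after seeing the data). No label says that the mice of a genotype came from separate litters. The smallest p of an exact permutation test on 3 against 3 libraries is 0.1. The floor of 3 counts covers counting error only.

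The members and lists were chosen with earlier results of these data known. Per-library values are given for members called, for the 5 of smallest unadjusted p with a mean of at least 1 FPKM and the 3 of highest mean FPKM in each family, and for up to 2 genes per list. Other members are given by range, and where such a member has values per library (Gstm3, Gstp1 and, in KO, Gsta4) it was chosen after its values were seen.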

Additional observations from a re-analysis of the deposited data

How the results depend on the processing

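The count of genes called was 8 by edgeR with TMM, 18 with library totals, 226 with DESeq2 and 3 with limma on log2(FPKM + 1). It lay between 0 and 90 when 1 library was left out, 0 without WT replicate 2, KO replicate 1 or KO replicate 3, where 1240, 1129 and 1127 genes had an unadjusted edgeR p under 0.05, 1 without KO replicate 2 and 90 without WT replicate 1. The replicate block gave 10 called genes and 0 called members. At an unadjusted edgeR p under 0.05 it gave 4 of 44 members (Sult1b1, Sult1c2, Gstm3 and Gstt3) and 1658 of 17900 genes. Gsta1 was not among these members. With the block Gstm3 had a log2 fold change of 0.33 (SE 0.11), beside 0.27 (SE 0.32) without it. No label ties the replicate numbers to a litter or day. Deviations of same-numbered libraries correlated at 0.0596, 0.0189 and 0.11, and 4 of 6 libraries correlated best with their own number. These values do not show whether the numbers pair the mice. Members called stayed at 0 in each family under all alternatives run, the added sum of 4 alpha class rows included, except 1 SULT gene (Sult1c2) with DESeq2. The SULT median log2 fold change was 0.13 with library totals, -0.22 with DESeq2 and -0.22 without the filter. DESeq2 and the fit without a filter tested all 10 SULT genes. Some log2 fold changes near 0 changed sign. With library totals they were 0.084 for Ugt2b34, 0.078 for Ugt1a7c, 0.026 for Sult1a1, 0.13 for Sult1d1, 0.15 for Sult2b1 and 0.15 for Gsto1. With limma on FPKM they were 0.10, 0.12, 0.030, 0.14, 0.13 and 0.16. The median of all genes was 0.15 with library totals and 0.091 with limma on FPKM, beside -0.00018 with TMM. With 1 library left out the log2 fold change ran from -0.10 (without KO replicate 1) to 0.88 for Ugt2b36, from -0.030 (without KO replicate 1) to 0.48 for Ugt2b5, from -0.18 to 0.059 for Ugt2b34, from -0.18 to 0.16 for Ugt1a7c, from -0.34 to 0.046 for Sult1a1, from -0.11 to 0.066 for Sult1d1, from -0.079 to 0.086 for Sult2b1, from -0.041 to 0.026 for Gsto1 and from -0.0086 to 0.13 for Mgst3. The other 11 named members kept their sign under every alternative run. The 7 genes that did not pass the filter had at most 0.35 CPM in any library, and the part of depth in this was not tested. Among the named members the SE was up to 0.77.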
